A study of Bos taurus with 20 samples.

Results

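The genes described here are 8 genes of antibody-secreting plasma cells, JCHAIN, MZB1, TNFRSF17, DERL3, POU2AF1, SDC1, XBP1 and PRDM1, as measured in maternal blood of pregnant cows. Their cattle symbols were matched to Entrez identifiers in a RefSeq gene table, and all 8 were found among the 37063 genes of the count files. Whole blood was drawn at day 63 of gestation from 20 recipient cows, each of which carried a transferred in vitro produced embryo from an Angus oocyte and later bore a heifer calf. RNA was stabilized at collection and sequenced as 1 library per cow. No untreated or non-pregnant animals were among the samples, so the only graded variable in the labels was the weight of the calf at birth (calf BW), from 30 to 72.5 kg. The comparisons therefore asked how far these genes varied from cow to cow, which of them varied together, whether they followed the genes of B cells, and whether they followed calf BW.

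Plasma cells are the end state of B cell differentiation and secrete immunoglobulin in large amounts. PRDM1 encodes the repressor that shuts down the B cell programme, XBP1 encodes the factor that enlarges the secretory pathway, and POU2AF1 encodes a coactivator of octamer-binding factors that is used by B cells as well as plasma cells. JCHAIN encodes the joining chain of polymeric IgM and IgA, MZB1 a chaperone of the endoplasmic reticulum that works with the HSP90B1 product, and DERL3 a protein of the same compartment that helps to remove misfolded chains. TNFRSF17 (BCMA) is a survival receptor of plasma cells and SDC1 (CD138) a surface proteoglycan by which they are often recognized. XBP1 and PRDM1 are also used outside the B lineage, PRDM1 in T cells among others.

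Total counts ran from 24632077 to 39892111 per cow. Levels are given as CPM, reads of a gene relative to the TMM-scaled total of the library, and each cow is named as the recipient of the calf of a given weight. Markers of B cells, T cells and neutrophils were present in every library, with summed levels of 1687 to 2932, 2255 to 3225 and 2502 to 4327 CPM. The recipient of the 50 kg calf stood apart in several ways that touch the results below. It had the lowest summed level of the 20 proliferation genes examined (826 CPM, against a median of 1103). It also had the second highest neutrophil sum (4269 CPM) and the second highest platelet sum (953 CPM). Many of the values that rest on it are therefore given with and without it, but the model on MZB1 given later was fitted only with it. The study's methods call the recipients lactating dairy cows whereas its overview of datasets gives the breed as Angus and a wide range of ages, and neither breed nor age is in the labels of each cow. The labels name no extraction or sequencing batch and no parity, and within-batch values could therefore not be computed.

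JCHAIN was measured at 219.5 ± 50.0 CPM (mean ± SD, n = 20). The lowest level was 103 CPM in the recipient of the 50 kg calf, the median was 233 CPM and the highest was 303 CPM in the recipient of the 40 kg calf, a 2.95-fold range. The recipients of the 32 and 55 kg calves followed at the low end with 140 CPM each, and the remaining 17 cows lay at 174.5 CPM or above. In bulk blood, the number of plasma cells, the RNA per plasma cell and RNA from other blood cells cannot be told apart. This holds for every level below.

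MZB1 had the widest relative spread of the members with adequate counts. Its level was 10.97 ± 3.15 CPM (SD, n = 20), from 4.59 CPM in the recipient of the 50 kg calf through a median of 10.7 CPM to 18.1 CPM in the recipient of the 45 kg calf. This is a 3.93-fold range between the extreme cows. Apart from it, only the recipient of the 36 kg calf, with 17.4 CPM, lay above 14 CPM, and the next lowest was the recipient of the 38 kg calf with 7.14 CPM.

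TNFRSF17 and DERL3 did not have the same cows at their extremes. TNFRSF17 was measured at 5.97 ± 0.738 CPM (SD, n = 20), from 4.46 CPM in the recipient of the 47.4 kg calf through a median of 6.12 CPM to 7.30 CPM in the recipient of the 41.5 kg calf. The gene model of TNFRSF17 in the table overlaps GSPT1 and a pseudogene, and since the strand setting of the counting was not stated, some of its reads could belong to these. DERL3 was measured at 9.23 ± 2.11 CPM (SD, n = 20), with 6.22 CPM in the recipient of the 41.5 kg calf, a median of 8.99 CPM and 14.04 CPM in the recipient of the 43 kg calf. The recipient of the 41.5 kg calf was thus the highest of the 20 for the receptor and the lowest for the endoplasmic reticulum gene. For both genes the recipient of the 50 kg calf was inside the range, at 5.32 CPM for TNFRSF17 and 8.77 CPM for DERL3.

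SDC1 was close to the limit of detection. It had 0 counts in 6 cows (the 36, 38, 41.5, 43, 53 and 56 kg calves), which allows up to 0.083 to 0.114 CPM in those libraries at 3 counts each, and between 3 and 18 counts in the other 14. The highest level, 0.531 CPM in the recipient of the 37 kg calf, came from 18 counts. This marker was therefore barely measured at this depth, and its values below are given for completeness.

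The 3 transcription regulators varied less than JCHAIN, MZB1 and DERL3. POU2AF1 was measured at 47.7 ± 6.50 CPM (SD, n = 20), from 37.2 CPM in the recipient of the 47.4 kg calf through a median of 46.4 CPM to 61.7 CPM in the recipient of the 30 kg calf. XBP1 was measured at 96.0 ± 11.6 CPM (SD, n = 20), from 74.1 CPM in the recipient of the 41.5 kg calf through a median of 95.4 CPM to 121 CPM in the recipient of the 47.4 kg calf. The cow with the least POU2AF1 was thus the cow with the most XBP1. PRDM1 was the steadiest member, at 81.7 ± 5.44 CPM (SD, n = 20), with 68.7 CPM in the recipient of the 50 kg calf, a median of 80.8 CPM and 91.7 CPM in the recipient of the 46 kg calf.

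Counting error makes low genes look more variable, so the spread was also expressed as the biological coefficient of variation (BCV), which edgeR estimates after removing counting error, and ranked among all genes that had 10 or more counts in 5 or more cows. MZB1 had a BCV of 27.8% and lay at percentile 69.5, JCHAIN had 23.5% (percentile 64.1) and DERL3 21.9% (percentile 61.9). These secretory genes were thus in the upper part of the distribution without being extreme. TNFRSF17 (14.3%), POU2AF1 (13.3%) and XBP1 (12.2%) lay at percentiles 45.1, 41.7 and 37.1. PRDM1, with 8.04%, lay at percentile 9.67, among the least variable genes of the blood. With 1 library per cow, neighbouring cows in these orders cannot be tested against each other.

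**Figure D1:**
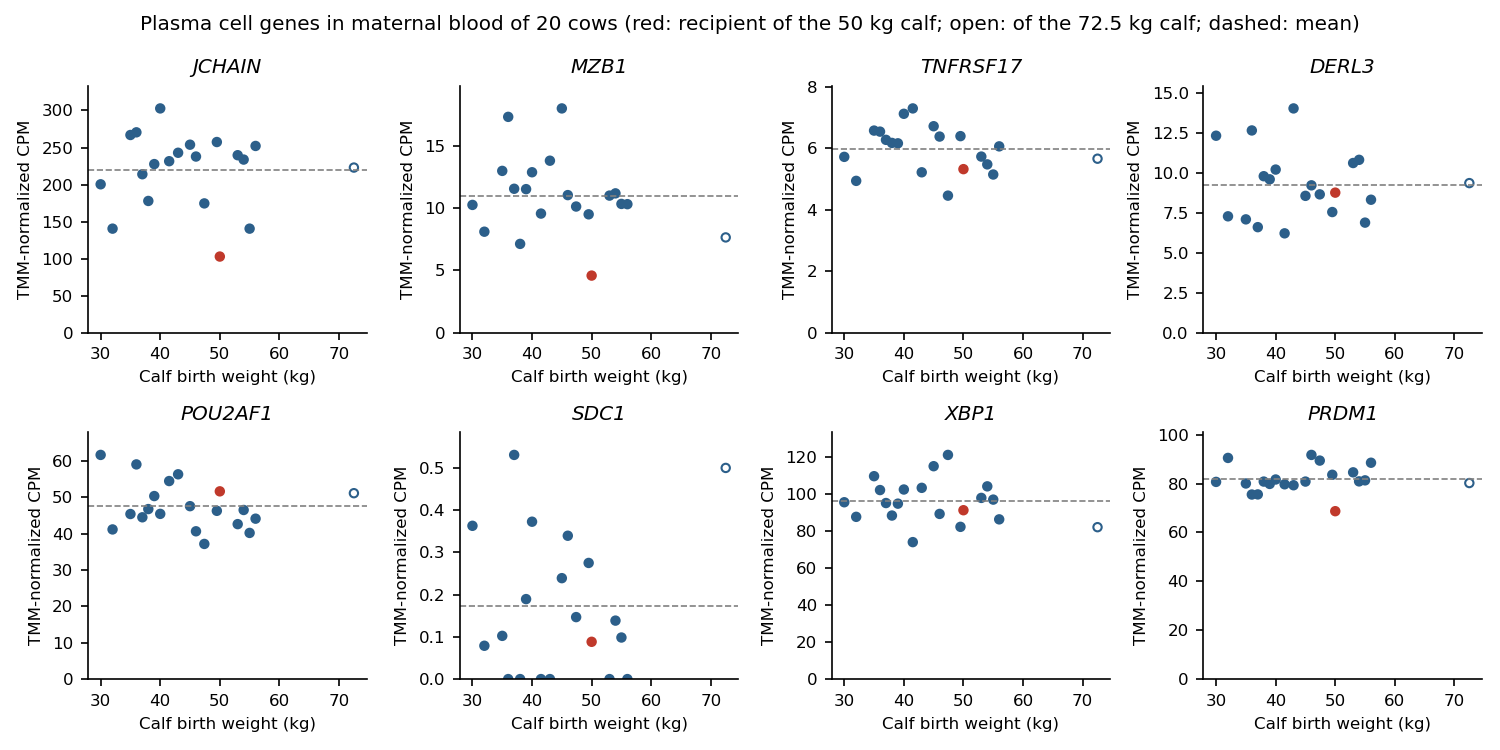
Level of each of the 8 plasma cell genes (TMM-normalized CPM, vertical axes from 0) against calf birth weight (kg, horizontal axes), 1 point per cow, with the mean of 20 cows as a dashed line. The recipient of the 50 kg calf (red) is the lowest for JCHAIN (103 CPM), MZB1 (4.59 CPM) and PRDM1 (68.7 CPM) but not for the other genes, and r with calf birth weight lies between -0.27 and 0.08.

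The 8 genes did not vary as a block. Of their 28 pairs, 19 had a positive and 9 a negative Pearson correlation of log2 CPM over the 20 cows, with a median r of 0.09 and a range from -0.61 to 0.75. Together with the correlations with blood cell scores and calf BW, 92 relations were tested by two-sided permutation with 100000 resamples, and p-values were adjusted over all 92. After adjustment, 2 pairs passed 0.05 and both involved JCHAIN.

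JCHAIN and MZB1 formed the tightest pair. Their Pearson r was 0.75 (permutation p = 0.00021, adjusted p = 0.0064, n = 20) and their Spearman rho was 0.66 (permutation p = 0.0018, adjusted p = 0.023). Both genes were lowest in the recipient of the 50 kg calf. Without the 2 cows farthest from the median of JCHAIN, those of the 50 and 55 kg calves, r was 0.63. Without the recipient of the 50 kg calf alone r was 0.57, and the adjusted p was then no longer under 0.05. Among the 16268 other genes that passed the same filter, MZB1 was the 4th most alike to JCHAIN.

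JCHAIN and TNFRSF17 formed the second pair, a secreted-antibody component and a surface receptor. Their r was 0.65 (permutation p = 0.0019, adjusted p = 0.035, n = 20) and their rho was 0.69 (permutation p = 0.0011, adjusted p = 0.020), and r was 0.67 without the 2 farthest cows. Leaving out any single cow kept r between 0.60 and 0.70. The adjusted p rose above 0.05 without the recipient of the 32, 35, 36, 40, 45 or 55 kg calf. MZB1 and TNFRSF17 themselves had r = 0.37 (permutation p = 0.11, adjusted p = 0.51).

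Among the other pairs, 2 passed by rank and not by value. MZB1 and XBP1 had r = 0.53 (permutation p = 0.015, adjusted p = 0.15) and rho = 0.68 (adjusted p = 0.020). POU2AF1 and PRDM1 went in opposite directions, with r = -0.61 (permutation p = 0.0038, adjusted p = 0.054) and rho = -0.75 (adjusted p = 0.0080). DERL3 and POU2AF1 had r = 0.49 (permutation p = 0.028, adjusted p = 0.23). SDC1 had r between -0.16 and 0.09 with every other member. XBP1 and PRDM1, which act in the same differentiation step, had r = -0.01.

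**Figure D2:**
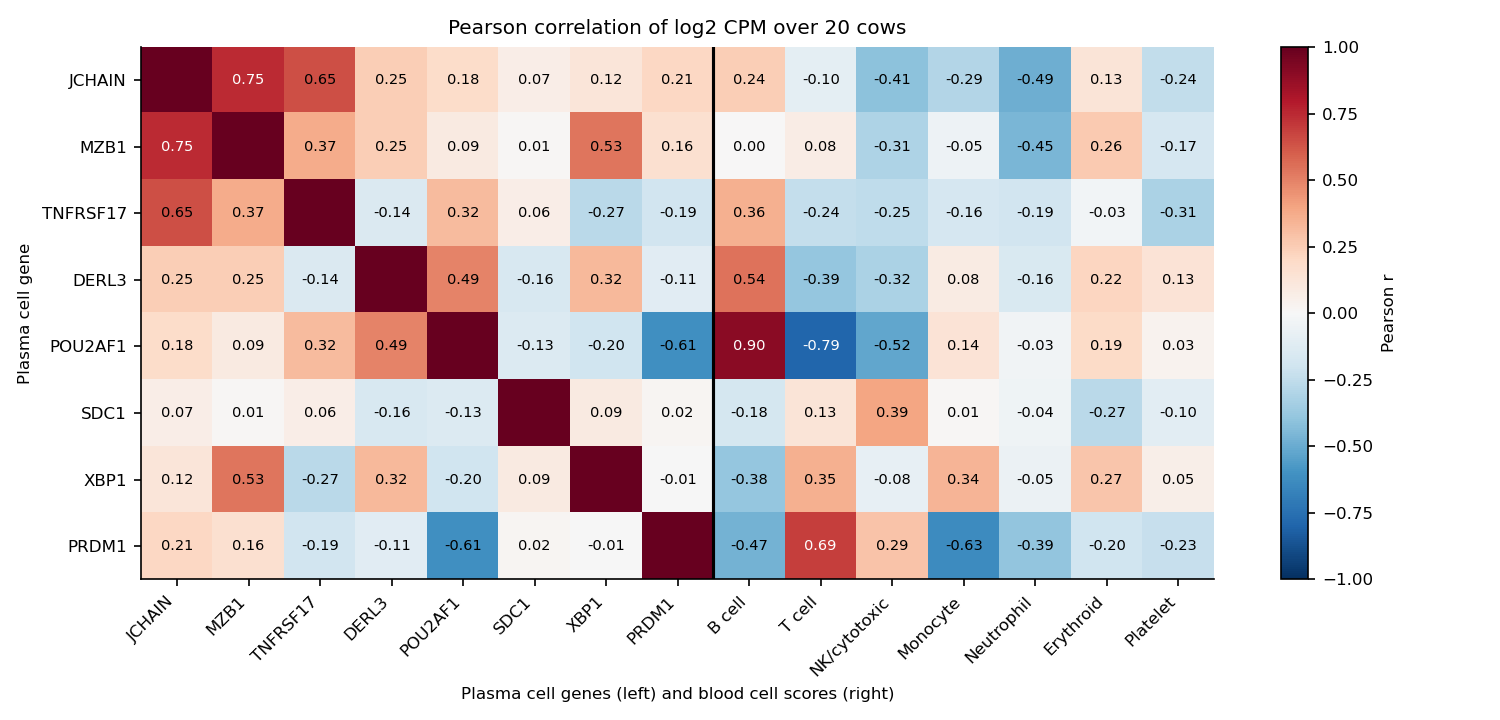
Pearson r of log2 CPM over 20 cows between the 8 plasma cell genes (rows) and each other (left block) or the scores of 7 blood cell types (right block), coloured from blue (-1) to red (1). JCHAIN with MZB1 (0.75) and JCHAIN with TNFRSF17 (0.65) are the highest pairs of members, and POU2AF1 has the highest value with the B cell score (0.90).

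The B cell score was the mean of standardized log2 CPM over 18 B cell identity genes, such as MS4A1 (CD20), CD79A, CD79B, CD22 and PAX5, none of them among the 8. POU2AF1 followed it closely. Its r with the score was 0.90 and its rho was 0.94, with a permutation p of 1e-05 for each, the smallest that 100000 resamples can give (adjusted p = 0.00092 for r). Leaving out any cow kept r between 0.88 and 0.92, and r was 0.90 without the 2 farthest cows. The genes most alike to POU2AF1 over the 20 cows were ZMIZ2 (r = 0.91), TNFRSF13C (0.90), CD79B (0.89), CD40 (0.88) and EHD3 (0.88), of which TNFRSF13C and CD79B are in the score.

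JCHAIN and MZB1 did not follow the B cell score to a degree that could be detected in 20 cows. The r of JCHAIN was 0.24 (permutation p = 0.30, adjusted p = 0.70) and that of MZB1 was 0.0016 (permutation p = 0.99, adjusted p = 0.99). Without the recipient of the 50 kg calf these were 0.44 and 0.12, so the low value of JCHAIN rested in part on that cow. The adjusted p of JCHAIN stayed above 0.05 whichever cow was left out. The recipient of the 50 kg calf, lowest for both, had a B cell sum of 2686 CPM, the 15th from the lowest. For TNFRSF17 r was 0.36 (permutation p = 0.12, adjusted p = 0.53). It lay between 0.12 and 0.49 with 1 cow left out, and was -0.06 without the 2 farthest cows. DERL3 had r = 0.54 (permutation p = 0.014, adjusted p = 0.15). Leaving out 1 cow gave 0.45 to 0.73 for DERL3, with an adjusted p under 0.05 in 1 of the 20 cases. XBP1 and PRDM1 had negative values of -0.38 (adjusted p = 0.46) and -0.47 (adjusted p = 0.24).

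B cell and T cell scores were themselves opposed over the cows (r = -0.84), so values with these scores are not independent of each other. POU2AF1 had r = -0.79 with the T cell score (permutation p = 2e-05, adjusted p = 0.00092). PRDM1 had r = 0.69 with it (permutation p = 0.0009, adjusted p = 0.021), and the gene most alike to PRDM1 was CD247, which encodes a chain of the T cell receptor complex (r = 0.87). Leaving out any cow kept the r of PRDM1 with the T cell score between 0.64 and 0.71. The r of PRDM1 with the monocyte score was -0.63 (permutation p = 0.0041, adjusted p = 0.054). No other member passed 0.05 after adjustment with any of the 7 scores.

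With the neutrophil score JCHAIN had r = -0.49 (permutation p = 0.030, adjusted p = 0.23) and MZB1 had r = -0.45 (permutation p = 0.044, adjusted p = 0.29). Without the 2 cows farthest from the median of each gene, these were -0.21 and -0.04. All 9 neutrophil markers in the table were detected. Their part in the JCHAIN and MZB1 levels was examined only by adding the score to the model described next.

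When the B cell score was removed from each gene by regression, given here as a description, the r of JCHAIN with MZB1 was 0.77 and with TNFRSF17 it was 0.62, close to the values before. The pair of DERL3 and POU2AF1 went from 0.49 to 0.01. DERL3 and XBP1 went the other way, from 0.32 to 0.68. POU2AF1 and PRDM1 had -0.49 after the removal.

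To test both influences at once, an edgeR quasi-likelihood model was fitted to all 16268 genes other than the anchor with 2 terms, the level of JCHAIN and the B cell score, each per SD over the 20 cows. An SD of JCHAIN was 0.38 on the log2 scale. On the JCHAIN term, MZB1 had a coefficient of 0.35 ± 0.072 (SE) log2 per SD (p = 9.73e-05, FDR = 0.18) and TNFRSF17 of 0.11 ± 0.038 (p = 0.0099, FDR = 0.45). The other members had 0.044 ± 0.064 for DERL3, 0.041 ± 0.037 for XBP1, 0.033 ± 0.022 for PRDM1, -0.0076 ± 0.022 for POU2AF1 and 0.34 ± 0.44 for SDC1. Thus 2 of the 7 other members had an unadjusted p under 0.05 in the positive direction, against 4.87% of all genes (793), and 0 of 7 had FDR under 0.05.

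At this threshold edgeR called a single gene of the 16268 on the JCHAIN term (0.00615%), whereas DESeq2 called 35 and limma with voom 6. DESeq2 included MZB1 (coefficient 0.35, FDR = 0.0019), and voom included none of the members. Without the recipient of the 50 kg calf the coefficient of MZB1 was 0.22 ± 0.074 (p = 0.0081, FDR = 1.0) and that of TNFRSF17 was 0.11 ± 0.042 (p = 0.013, FDR = 1.0), when 1.45% of genes had a positive p under 0.05. With the neutrophil score as an added term, MZB1 had 0.31 ± 0.079 (p = 0.00070, FDR = 0.66). The gene that edgeR called was PTGES3L, named after its value was seen, with a coefficient of -0.81 (FDR = 0.0047). It stood at 24.9 CPM in the recipient of the 50 kg calf, the highest of the 20 cows, where the median was 1.83 CPM, and its coefficient was -0.038 (p = 0.67) without that cow.

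On the B cell score term, POU2AF1 was the only member called, with 0.18 ± 0.022 log2 per SD (FDR = 4.3e-05), where 1.82% of genes were called in the positive direction. DERL3 had a coefficient of the same size and a larger error, 0.17 ± 0.061 (p = 0.010, FDR = 0.18). PRDM1 had -0.055 ± 0.021 (p = 0.018, FDR = 0.23) and XBP1 -0.075 ± 0.036 (p = 0.050, FDR = 0.40). At an unadjusted p under 0.05, 2 of 7 members were positive, against 6.82% of all genes, and 1 of 7 was negative, against 5.83%. MZB1 had -0.074 ± 0.067 (FDR = 0.74) and TNFRSF17 0.040 ± 0.039 (FDR = 0.77).

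The difference between the terms, JCHAIN minus B cell score, tests directly whether a gene followed one more than the other. It was called for 0.953% of genes (155), among them POU2AF1 on the B cell side with -0.18 ± 0.034 (FDR = 0.0078). For MZB1 the difference was 0.42 ± 0.11 on the JCHAIN side (p = 0.0012, FDR = 0.085 with edgeR and 0.011 with DESeq2). For the other members FDR was 0.31 or above, with differences of 0.087 ± 0.034 for PRDM1, 0.12 ± 0.057 for XBP1, 0.069 ± 0.061 for TNFRSF17 and -0.13 ± 0.098 for DERL3. Among the 7 members, 2 lay on the JCHAIN side at an unadjusted p under 0.05 (5.98% of all genes) and 1 on the B cell side (5.26%). Without the recipient of the 50 kg calf, POU2AF1 kept its value (-0.18 ± 0.041) with FDR = 0.087, MZB1 had 0.26 ± 0.13 (p = 0.052, FDR = 0.75) and PRDM1 had 0.031 ± 0.034 (p = 0.37), so that neither of the 2 genes on the JCHAIN side had an unadjusted p under 0.05. The difference for POU2AF1 was thus not called without that recipient, and was called when any of the other 19 cows was omitted.

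**Figure D3:**
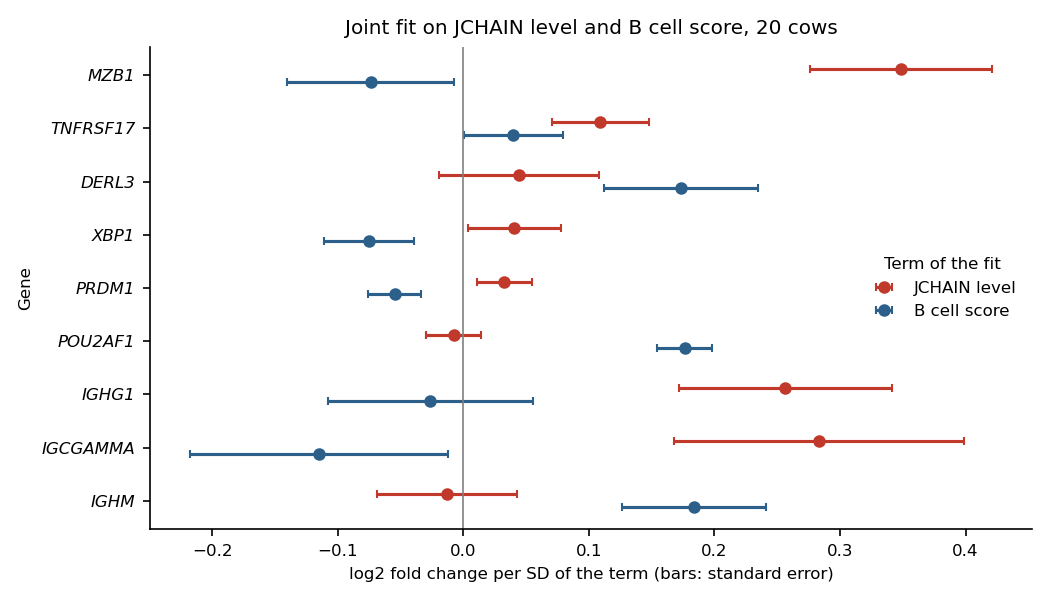
Coefficients (log2 fold change per SD of the term, bars ± SE) of 6 plasma cell genes and 3 immunoglobulin heavy chain genes in the joint fit on JCHAIN level (red) and B cell score (blue) over 20 cows; SDC1 is left out because of its low counts. MZB1 (0.35), IGHG1 (0.26) and IGCGAMMA (0.28) lie to the right on the JCHAIN term, and POU2AF1 (0.18), DERL3 (0.17) and IGHM (0.18) on the B cell term.

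Immunoglobulin chain genes carry the product of these cells, and 5 heavy or surrogate light chain genes were listed by symbol. Their near-identical sequences can share reads, so their levels are uncertain. IGHG1 was measured at 559.8 ± 172 CPM (SD, n = 20), from 308 CPM in the recipient of the 38 kg calf through a median of 527 CPM to 921 CPM in the recipient of the 36 kg calf. IGCGAMMA ranged from 317 CPM in the recipient of the 50 kg calf to 1118 CPM in the recipient of the 45 kg calf, and IGHM from 59.8 to 134 CPM. IGHE was listed at 0 in all 20 cows and IGLL1 at 0 in 16.

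The 2 gamma chain genes lay close to MZB1 in their pattern over the cows. Since they can share reads, they may not be 2 separate observations. IGHG1 was the 3rd most alike to MZB1 of 16268 genes (r = 0.83, and 0.87 without the recipient of the 50 kg calf) and IGCGAMMA the 12th (r = 0.75, and 0.72). With JCHAIN their r was 0.53 and 0.46, and 0.46 and 0.30 without that recipient. In the joint fit IGHG1 had 0.26 ± 0.085 log2 per SD on the JCHAIN term (p = 0.0065, FDR = 0.43) and IGCGAMMA had 0.28 ± 0.12 (p = 0.023, FDR = 0.53). IGHM, the mu chain that naive B cells carry on their surface, had -0.013 ± 0.055 on the JCHAIN term and 0.18 ± 0.058 on the B cell term. Its r was 0.08 with JCHAIN, 0.45 with POU2AF1 and 0.45 with DERL3. Without the recipient of the 50 kg calf these were 0.26, 0.44 and 0.46.

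The gene most alike to MZB1 in the whole blood transcriptome was HSP90B1, the endoplasmic reticulum chaperone with which its product works, at r = 0.96 (0.93 without the recipient of the 50 kg calf). HSP90B1 was measured at 1113 ± 117 CPM (SD, n = 20), from 835 CPM in the recipient of the 50 kg calf through a median of 1120.0 CPM to 1368 CPM in the recipient of the 45 kg calf, the same animals that were lowest and highest for MZB1. BHLHA15 (MIST1), a transcription factor of secretory cells, followed with r = 0.87 (0.83 without that recipient). PDIA4, a protein disulfide isomerase, was 5th with r = 0.81 (0.70 without that recipient). BHLHA15 was also the most alike to JCHAIN (r = 0.77, and 0.68 without the recipient of the 50 kg calf), ahead of CEP44 (0.75), the cargo receptor gene LMAN1 (0.75), MZB1 (0.75) and LOC100296272 (0.74). Without that recipient, CEP44, LMAN1, MZB1 and LOC100296272 had 0.53, 0.55, 0.57 and 0.57.

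The nearest genes of the other members were of other kinds. Those of TNFRSF17 were AGPAT5 (r = 0.76), LOC104970180 (0.76), CDIN1 (0.75), BCAS3 (0.74) and MRO (0.72). DERL3 had MMP11 (0.80), DTX2 (0.78), ZNF7 (0.77), GRAMD4 (0.76) and SEPTIN2 (0.75). XBP1 was most like IDH3B (0.88), EIF1AX (0.84), MRPS2 (0.84), SNX15 (0.83) and TPI1 (0.83), genes of mitochondrial metabolism, translation, sorting and glycolysis. Further down its ranking, XBP1 had r = 0.72 with IGCGAMMA (rank 91 of 16268), 0.55 with IGHG1 (rank 620) and -0.075 with IGHM. After CD247, PRDM1 had SERPINE2 (0.83), AGPS (0.83), LAX1 (0.82) and RBM22 (0.81). Without the recipient of the 50 kg calf, the lowest for PRDM1, these were 0.76, 0.72, 0.74 and 0.78. For SDC1, whose counts were too low for a stable ranking, MDP1 (0.73), DYNC1I1 (0.71), LOC107132604 (0.70), CSTPP1 (0.69) and LOC107132835 (0.69) came first. These rankings are descriptions over 20 cows and share the libraries and their depth.

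**Figure D4:**
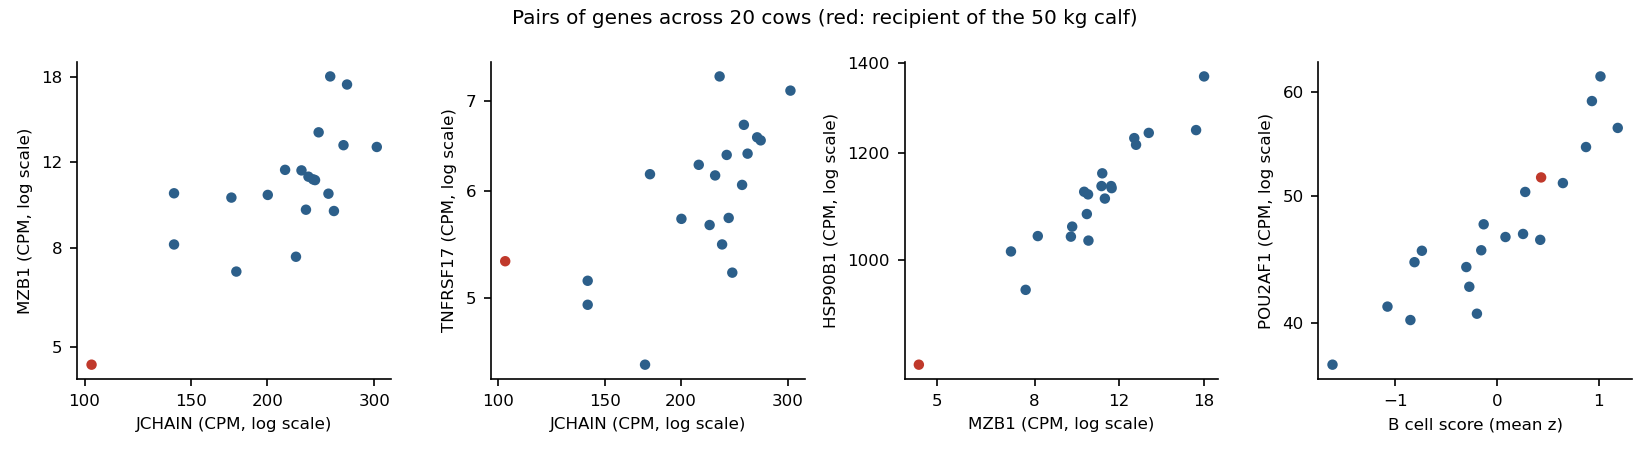
Each panel shows a pair of values over 20 cows, 1 point per cow, with levels in CPM on log axes and the B cell score as a mean of standardized values on a linear axis. MZB1 and HSP90B1 (r = 0.96) and POU2AF1 and the B cell score (r = 0.90) lie close to a line, and the recipient of the 50 kg calf (red) sits at the low end of JCHAIN and MZB1 but above the middle for POU2AF1.

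With MZB1 in place of JCHAIN in the model, edgeR called 13 genes in the positive direction (0.0799%) and 2 in the negative direction. This fit was not repeated without the recipient of the 50 kg calf, which had the lowest MZB1 level. The 2 negative calls, named after their values were seen, were PTGES3L (-0.76, FDR = 0.0059) and CD151 (-0.18, FDR = 0.028). PTGES3L stood at 24.9 CPM in that recipient, where the median of the 20 cows was 1.83 CPM. HSP90B1 had 0.15 ± 0.013 log2 per SD of MZB1 (FDR = 4.55e-06), BHLHA15 0.38 ± 0.047 (FDR = 0.00077), IGHG1 0.36 ± 0.053 (FDR = 0.0059) and IGCGAMMA 0.41 ± 0.078 (FDR = 0.036). The disulfide isomerase genes TXNDC5 (0.18, FDR = 0.010) and PDIA4 (0.15, FDR = 0.027) and the cell cycle genes MKI67 (0.15, FDR = 0.027) and RRM2 (0.20, FDR = 0.028) were also called. The remaining positive calls were MYBL2, KIF23, LOC112443201, LOC100294952 and COL1A2. Of these, COL1A2 had the largest coefficient of all calls (2.29, FDR = 0.032), from a mean of 31.9 counts. Of the members, JCHAIN had 0.28 ± 0.058 (p = 7.44e-05, FDR = 0.064) and XBP1 had 0.090 ± 0.030 (p = 0.0065, FDR = 0.59), and none passed 0.05. At an unadjusted p, these were 2 of 7 members in the positive direction (3.42% of all genes), and 0 of 7 were negative (2.4%). With TNFRSF17 as the anchor edgeR called 0 genes, with 768 positive and 641 negative at an unadjusted p under 0.05 and no other tool run, and JCHAIN had 0.23 ± 0.066 (p = 0.0027, FDR = 0.57).

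Lists of genes that work in plasma cells were also read on the JCHAIN term. In the list of the secretory pathway and unfolded protein response, 33 of 40 genes had positive coefficients, against 53.1% of all genes, with a median of 0.036 log2 per SD against 0.0043 over all genes. An unadjusted p under 0.05 was reached by 12 genes upward (4.87% of all genes) and 1 downward (3.68%), and after adjustment edgeR and voom called 0 of the 40 and DESeq2 called 1, HSP90B1. The most abundant members had 0.13 ± 0.025 for HSP90B1 (p = 4.42e-05, FDR = 0.18), 0.060 ± 0.030 for CALR, 0.036 ± 0.017 for CANX and 0.028 ± 0.045 for P4HB. Without the recipient of the 50 kg calf, 27 of 40 were positive and 3 had p under 0.05 upward (1.45% of all genes). That cow had the lowest summed level of the list, 4358 CPM against a median of 4933 CPM.

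In the proliferation list, 20 of 20 genes had positive coefficients on JCHAIN, against 53.1% of all genes, with a median of 0.14 log2 per SD and 13 at p under 0.05 (4.87% of all genes). After adjustment edgeR and voom called 0 of them and DESeq2 called 7. MKI67 had 0.14 ± 0.030 (p = 0.00017, FDR = 0.18), CENPF 0.14 ± 0.026 (p = 2.89e-05, FDR = 0.18), STMN1 0.073 ± 0.028 (p = 0.016, FDR = 0.48) and NUSAP1 0.039 ± 0.033 (p = 0.24). Without the recipient of the 50 kg calf, 20 of 20 were positive and 6 had p under 0.05 (1.45% of all genes). In the fit on JCHAIN without the B cell score 6 had p under 0.05. With the neutrophil score in the model, 19 of 20 were positive and 8 had p under 0.05 (3.65% of all genes). On the B cell term, 9 of these 20 genes were called downward (0.725% of all genes), as were 8 of the 16 T cell genes. The cycling cells to which the proliferation genes belong were not identified.

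The list of transcription factors of B cell and plasma cell identity, which holds 3 of the members, moved little with JCHAIN. Its median was 0.011, 12 of 19 were positive and 1 had p under 0.05. That gene was EAF2, named after its value was seen (0.17 ± 0.054, p = 0.0053, FDR = 0.41). IKZF1, IKZF3, ATF4 and BCL6, the most abundant, had -0.0015, 0.011, -0.024 and -0.11. On the B cell term POU2AF1, POU2F2, PAX5 and SPIB were called upward, of which PAX5 and SPIB are in the score.

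The list of surface and survival genes had a median of -0.0040 on JCHAIN, with 8 of 17 tested genes positive. ITGA4 had 0.068 ± 0.032 (p = 0.043, FDR = 0.57), and IL6R, ITGB7 and CD27 had -0.049, -0.030 and 0.014. CD38, an ectoenzyme much used as a plasma cell marker, had -0.17 ± 0.083 on JCHAIN (p = 0.054) and 0.49 ± 0.086 on the B cell score (FDR = 0.0021). The difference of its terms was called (FDR = 0.016). Of the lists of other blood cells, 7 of 18 B cell genes, 12 of 16 T cell genes, 3 of 11 cytotoxic genes, 0 of 9 monocyte genes, 0 of 9 neutrophil genes, 7 of 9 erythroid genes and 3 of 10 platelet genes were positive on JCHAIN, and 0 were called by edgeR, DESeq2 or voom. The 18 B cell genes make up the score in the same fit, so their signs on JCHAIN cannot show whether they rise with it. Outside this fit, the r of JCHAIN was 0.24 with the B cell score and -0.099 with the T cell score. Without the recipient of the 50 kg calf these were 0.44 and -0.39. CXCR1 and S100A9, 2 neutrophil genes, had p under 0.05 downward (-0.19 and -0.17).

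**Figure D5:**
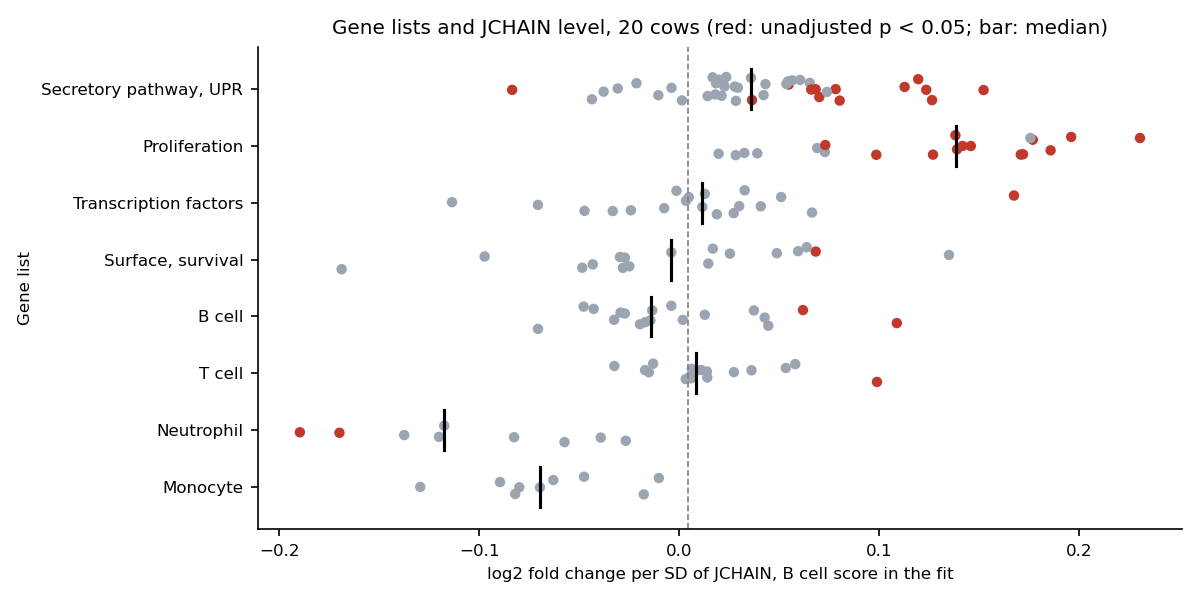
Coefficients on JCHAIN level (log2 fold change per SD, B cell score in the fit, 20 cows) for the tested genes of 8 lists, 1 point per gene, red where the unadjusted p is under 0.05, with the list median as a black bar and the median of all genes (0.0043) as a dashed line. All 20 proliferation genes and 33 of 40 secretory genes lie above 0, and all 9 neutrophil and 9 monocyte genes lie below 0; none passed FDR of 0.05 in edgeR.

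The relation of these genes to calf BW was tested in 19 cows, without the recipient of the 72.5 kg calf, as the study did. SDC1 did not pass the filter on low counts there, so 7 of the 8 members were tested. Of these 7, 6 had negative slopes and PRDM1 a positive slope. Over all 16206 tested genes, 7544 had positive slopes. The members share libraries and some vary together, so their directions are not independent of each other. In edgeR 0 of 16206 genes had FDR under 0.05 (smallest FDR = 0.075), with 2247 genes (13.9%) at an unadjusted p under 0.05, 6.78% positive and 7.08% negative. DESeq2 called 187 genes and limma with voom 0, and none of the members was among the DESeq2 calls.

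JCHAIN had a slope of -0.0036 ± 0.011 (SE) log2 per kg (p = 0.74) and MZB1 of -0.0088 ± 0.012 (p = 0.47). Either slope was smaller than its error. The slope of MZB1 was -0.0035 without the recipient of the 50 kg calf and -0.0031 without that of the 36 kg calf. The slope of JCHAIN was positive without the recipient of the 50 or the 55 kg calf, at 0.0013 and 0.0031. TNFRSF17 had -0.0062 ± 0.0060 (p = 0.31) and DERL3 -0.0058 ± 0.0095 (p = 0.55). For XBP1 the slope was -0.00053 ± 0.0049 (p = 0.91) and for PRDM1 0.0012 ± 0.0030 (p = 0.70).

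POU2AF1 was the only member with an unadjusted p under 0.05, at -0.011 ± 0.0052 log2 per kg (p = 0.041), and its FDR over all genes was 0.34. This makes 1 of 7, where 7.08% of all genes had a negative slope at that p. The p was 0.27 with all 20 cows and 0.0099 (FDR = 0.23) with the B cell score as a covariate. Leaving out 1 of the 19 cows moved it from 0.0080 (without the 32 kg calf) to 0.20 (without the 30 kg calf), and it was above 0.05 without the recipient of the 30, 36, 39, 47.4, 49.5, 53, 55 or 56 kg calf. Of all 20 cows, that of the 30 kg calf had the highest POU2AF1 level.

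Over all 20 cows, the Pearson r of the 8 genes with calf BW lay between -0.27 (MZB1) and 0.08 (SDC1), and 0 of 8 had a permutation p under 0.05 (smallest p = 0.25). Among the immunoglobulin genes the slope was -0.00037 ± 0.012 log2 per kg for IGHG1 (p = 0.98), 0.0033 ± 0.015 for IGCGAMMA (p = 0.83) and 0.0055 ± 0.0085 for IGHM (p = 0.52). The B cell score had r = 0.0045 with calf BW. At the spread between these cows, a relation of plasma cell genes with calf BW was not detectable, which does not show that there is none.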

How the data were processed

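RNA was measured in maternal blood of 20 cows at day 63 of gestation, 1 library per cow, so p-values measure the spread between cows. After trimming with Trimmomatic, the authors mapped reads to ARS-UCD1.3 with STAR (2.7.0b) and, with featureCounts (Subread 2.0.3), made the deposited raw counts per Entrez identifier. The sources name 2 library kits, both stranded, and the strand setting and the handling of reads that fit several genes are not given in the sources used here. Symbols came from a RefSeq table of another assembly (ARS-UCD2.0), all identifiers matched, and no coordinates or sequences are given. No other samples' columns were found (0).

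Genes that had 10 or more counts in 5 or more cows were tested with edgeR 4.0.16 (R 4.3.3), TMM scaling and the quasi-likelihood test, with Benjamini-Hochberg adjustment over all tested genes (FDR). The SE is the coefficient divided by the square root of F. Correlations used log2 CPM with a prior count of 2, and two-sided permutation tests with 100000 resamples. Depth was 24632077 to 39892111 counts per cow. A count of 0 allows up to 3 counts, which covers counting error only. Any 2 of the 20 libraries differed by more than sampling noise. Alternatives were DESeq2 1.42.0, limma 3.58.1 with voom, other scalings, filters and anchors, all 20 cows, the rank of calf BW, and leaving out each cow. The neutrophil score as a covariate was added after seeing the data. The scripts were tested on simulated data.

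The members and gene lists were chosen with earlier results of these data known. Genes named are the members, the 5 genes most alike to each, the called and 4 most abundant genes of each list, and immunoglobulin genes. The table has no descriptions, so the latter were taken by symbol. Figures and correlations were made with matplotlib 3.10.9, scipy 1.17.1, pandas 2.3.3 and numpy 2.4.6 in Python 3.11.15.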

Additional observations from a re-analysis of the deposited data

How the results depend on the processing

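No paired analysis was possible because all 20 cows form 1 group and share no replicate numbers with another. Of the 68 counts recomputed, 49 stayed within 1.5 times the value given, and of 323 single values 306 stayed the same. For slopes, coefficients and correlations this meant the same direction and side of the threshold. For the mean levels, 8 of the 323, it meant a shift smaller than their SD. Genes called on calf BW numbered 187 with DESeq2, 147 with any count allowed and 4 with all 20 cows, against 0, and 0 to 34 with 1 cow left out. Members with p under 0.05 on calf BW were 0 with voom and 0 with all 20 cows, against 1, and 0 to 1 with 1 cow left out. Genes called with JCHAIN were 35 with DESeq2, 6 with voom, 21 with any count, 15 with MZB1 as anchor, 0 with TNFRSF17 as anchor and 0 with the neutrophil score, against 1, and 0 to 1 with 1 cow left out. DESeq2 called 1 member with JCHAIN, against 0, and 2 members for the difference of JCHAIN and B cell score, against 1, which was 0 to 1 with 1 cow left out. Proliferation genes with p under 0.05 upward were 8 with the neutrophil score, 5 with TNFRSF17 as anchor and 6 without the B cell score, against 13, and 6 to 14 with 1 cow left out. Secretory genes were 20 with MZB1 and 3 with TNFRSF17 as anchor, against 12, and 3 to 14 with 1 cow left out, the lowest without the recipient of the 50 kg calf in both lists. By Spearman 4 pairs of members passed, against 2, and 1 to 3 by Pearson with 1 cow left out; 2 to 5 relations with cell scores passed, against 3.

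Direction turned for small values. The calf BW slope of DERL3 was 0.00021 with the B cell score and that of XBP1 0.00014 with any count. Coefficients were -0.11 for DERL3, -0.025 for XBP1 and -0.0024 for PRDM1 on TNFRSF17, and for POU2AF1 0.017 on MZB1 and 0.032 without the B cell score. With a prior count of 0.5 the correlations of SDC1 were -0.014 with JCHAIN, -0.021 with MZB1 and -0.00505 with TNFRSF17. Spearman gave -0.0015 for JCHAIN and SDC1, -0.19 for MZB1 and PRDM1 and -0.0090 for MZB1 and the B cell score. With 1 cow left out, slopes on calf BW ran from -0.0103 to 0.0031 for JCHAIN, -0.0146 to -0.0031 for MZB1, -0.0101 to 0.00038 for DERL3 and -0.0023 to 0.0017 for XBP1, and the JCHAIN coefficient of PRDM1 from -0.0099 (without the recipient of the 50 kg calf) to 0.041. Correlations then ran from -0.016 to 0.14 for JCHAIN and SDC1, -0.29 to 0.40 for JCHAIN and PRDM1, -0.074 to 0.25 for MZB1 and POU2AF1, -0.088 to 0.15 for MZB1 and SDC1, -0.36 to 0.30 for MZB1 and PRDM1, -0.24 to 0.013 for TNFRSF17 and DERL3, -0.027 to 0.21 for TNFRSF17 and SDC1, -0.070 to 0.21 for SDC1 and XBP1, -0.090 to 0.12 for SDC1 and PRDM1, -0.19 to 0.058 for XBP1 and PRDM1, and -0.13 to 0.12 for MZB1 and the B cell score.

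The causes were not tested. The design holds 1 library per cow and no replicate of a cow, and what else separated the cows is not in the labels. Depth limits SDC1 most, with 18 counts at best.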
